A study of Homo sapiens with 6 samples.

Results

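Small nucleolar RNA (snoRNA) host genes were followed through RNA sequencing of the human glioblastoma cell line U87-MG. The hosts were taken by name from the deposited table: every gene whose symbol is SNHG followed by a number, with GAS5, ZFAS1 and EPB41L4A-AS1. This gave 31 of the 61806 genes in the table, and 25 of them reached the mean level required for testing. The study asked how the transcriptome of these cells responds to knockdown of GRIK1, a kainate-type glutamate receptor subunit. There were 3 libraries of the negative control (NC), labelled wild type, and 3 libraries labelled GRIK1 siRNA, all of total RNA from the same line (the latter are called siRNA-labelled libraries). Their numbers 1 to 3 may stand for replicates or for different siRNAs, which the labels do not say, and a description of those samples names shRNA instead. They do not say that the libraries of a group came from separate cultures, so p-values measure the spread between libraries, which may be technical.

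Many snoRNAs, though not all, guide the chemical modification of ribosomal RNA: box C/D guides direct ribose methylation and box H/ACA guides direct pseudouridylation. Most human snoRNAs lie in introns and are cut out of the host transcript after splicing. In the hosts studied here the spliced exons encode no known conserved protein in most cases, and several of these RNAs are known substrates of nonsense-mediated decay, in which translation marks the RNA for destruction. Many hosts begin, like the mRNAs of ribosomal proteins, with a C followed by other pyrimidines, the terminal oligopyrimidine (TOP) start through which mTORC1 and LARP1 regulate an RNA's translation and stability. In 6 hosts (SNHG19, SNHG1, SNHG8, EPB41L4A-AS1, SNHG15 and SNHG9) the exonic bases of the table equal the whole span of the gene, so counts there can include introns and the snoRNAs in them. Elsewhere the counted exons cover only part of the span.

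The libraries held 11099909 to 14006968 counts. Fixed cell type markers were read, which cannot by themselves identify the line as U87-MG. VIM, CD44 and EGFR were abundant, the leukocyte and endothelial markers PTPRC and PECAM1 had 0 to 5 counts, and S100B and SOX2 had 0 to 4 counts. The astrocyte marker GFAP was low, at 8 to 13 counts in NC and 36 to 39 in siRNA-labelled libraries, as were OLIG2 at 15 to 30, NES at 16 to 51, the neuronal marker RBFOX3 at 11 to 44, the oligodendrocyte marker MBP at 2 to 18 and the epithelial marker EPCAM at 27 to 64. GRIK1 itself had 18, 9 and 8 counts in NC and 15, 20 and 20 in siRNA-labelled libraries, so the targeted RNA was not lower where the label says siRNA. NC library 3 stood apart from the other 5: its counts on ribosomal protein genes were 9.32% of the total against 4.77% to 5.48%, and the common dispersion of the fit fell from 0.0391 to 0.00298 when it was left out. The hosts and the named genes of the comparison lists are therefore given with and without it, and why it differs was not tested.

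The transcript starts of the hosts are shown because many of them, though not all, share a TOP-like annotated start with ribosomal protein genes. The first 30 bases of annotated transcripts follow, on GRCh38 and in the direction of transcription, with capitals for the opening run of C and T bases. These come from GENCODE 29, and each is the most upstream annotated transcript of the gene that opens with C and has at least 5 C or T bases in a row:
GAS5 (chr1:173867960-173867989, minus strand): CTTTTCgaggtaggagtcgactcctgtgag
SNHG16 (chr17:76557769-76557798, plus strand): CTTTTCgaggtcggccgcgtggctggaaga
SNHG19 (chr16:2155329-2155358, minus strand): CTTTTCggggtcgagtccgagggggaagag
SNHG5 (chr6:85678704-85678733, minus strand): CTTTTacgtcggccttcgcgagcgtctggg
ZFAS1 (chr20:49278642-49278671, plus strand): CTTTCgcgtctgcggtgcccggagtgtggt
SNHG8 (chr4:118278758-118278787, plus strand): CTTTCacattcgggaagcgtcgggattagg
SNHG29 (chr17:16438975-16439004, plus strand): CTCCTTTTgtgaggattgggatattccgac
SNHG3 (chr1:28506043-28506072, plus strand): CCTTTTTggagacagattcgcagtggtcgc
SNHG4 (chr5:139274102-139274131, plus strand): CCTTTCCCCTCCggcctctgccggtgctgc
SNHG18 (chr5:9546200-9546229, plus strand): CTCCTCCTCCTCCTCCTCCCCgccggggtg

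GAS5 and SNHG16, on different chromosomes, share their first 11 bases, and each shares 7 with SNHG19. SNHG32 has such a start in RefSeq and not in GENCODE 29, and for SNHG12 the RefSeq start is shown. The last 3 hosts are shown for contrast and have no such run at the RefSeq start, nor in any GENCODE 29 transcript. All 5 were read from RefSeq on GRCh38:
SNHG32 (chr6:31834916-31834945, plus strand): CTTTTTgcgaagtgggctcgtgggttggca
SNHG12 (chr1:28581844-28581873, minus strand): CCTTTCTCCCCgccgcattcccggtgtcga
SNHG17 (chr20:38435299-38435328, minus strand): agtccttcgccgtccctcgccgtccttcgc
SNHG20 (chr17:77088643-77088672, plus strand): aagttgctgacggagctacttccgcccagg
EPB41L4A-AS1 (chr5:112160526-112160555, plus strand): tgtcgggtcccaaaatacgtggtctaaagt

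In GENCODE 29, 15 of the 25 tested hosts (60.0%) had a transcript with this start, against 66 of 80 tested ribosomal protein genes (82.5%), 2222 of 15529 tested genes found there (14.3%) and 118 of 2124 tested long noncoding genes (5.6%). Hosts have a median of 8 annotated transcripts and tested long noncoding genes a median of 1, so a host had more starts among which to match. RefSeq gives 1 start per gene and holds 27 of the 31 hosts, and there 7 of 27 (25.9%) matched, against 47 of 82 ribosomal protein genes (57.3%) and 1429 of 35116 genes (4.1%). Annotated starts differ between sources, by a few bases or by far more. For SNHG8 the RefSeq start lies inside the printed run and lacks it. Of the hosts printed from GENCODE 29, GAS5, SNHG16, SNHG29 and SNHG3 also lack the run at the RefSeq start. For GAS5 that start is at chr1:173869045, and the printed transcript starts at 173867989. Counting either source, 16 tested hosts carried the start and 9 did not. A match describes letters in an annotation and does not show which start these cells used.

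Per exonic length, GAS5 and SNHG29 were the most abundant hosts, at a mean of 54.4 and 53.9 FPKM (counts scaled to exonic length and to the library total) over the 6 libraries. GAS5 (ENSG00000234741, chr1:173858559-173868882, minus strand) is known as a growth arrest transcript. SNHG29 (ENSG00000175061, chr17:16438767-16480249, plus strand) is the gene named LRRC75A-AS1 in GENCODE 29. SNHG32, the gene named C6orf48 there, followed at 48.3 FPKM, then SNHG6 at 31.3, SNHG19 at 29.6, ZFAS1 at 23.4, SNHG3 at 21.0, SNHG5 at 20.0 and SNHG1 at 18.1. GAS5 held 59.8 ± 17.3 FPKM (SD, n = 3) in NC and 49.0 ± 0.769 in the siRNA-labelled libraries, and SNHG29 held 68.0 ± 30.4 and 39.9 ± 0.961. The wide NC errors come with NC library 3, where GAS5 was at 79.7 and SNHG29 at 103 FPKM. The order of neighbouring hosts is within that spread, and FPKM depends on the exonic length assigned to a gene, which for SNHG5 is 12604 bases. In raw counts SNHG29 alone took 25.4% of all host counts, followed by GAS5 at 14.0%, SNHG5 at 13.2% and ZFAS1 at 10.2%.

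The hosts together took 0.179%, 0.186% and 0.291% of all counts in NC libraries 1, 2 and 3, against 0.163%, 0.166% and 0.164% with the siRNA label. The group means were 0.219% ± 0.0632 (SD, n = 3) and 0.165% ± 0.00154 (SD, n = 3), and without NC library 3 the NC mean was 0.182% ± 0.00488 (SD, n = 2). The 2 groups did not overlap, and NC library 3 lay far above the rest. That height lay in the hosts with a TOP-like start, with 0.161%, 0.167% and 0.275% in NC against 0.144%, 0.147% and 0.146%. Tested hosts without one were level in sum as raw shares, at 0.0140%, 0.0147% and 0.0139% against 0.0149%, 0.0140% and 0.0139%. These shares lack the TMM scaling between libraries used in the tests. Its factor was 0.891 for NC library 3 and 1.0063 to 1.0335 for the others, which raises NC library 3 relative to them. After that scaling, single hosts without a TOP-like start moved either way in NC library 3. They ran from 0.496 times its partners for SNHG17 to 1.33 times for SNHG7 and EPB41L4A-AS1. Ribosomal protein genes took 5.22%, 5.48% and 9.32% against 4.84%, 4.78% and 4.77%. The 5 genes SNHG29, GAS5, SNHG5, ZFAS1 and SNHG32 made up 74.2% of the host counts in NC library 3 and 63.9% to 65.6% elsewhere. These are shares of bulk RNA, in which fewer cells of a kind and less RNA per cell cannot be told apart.

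**Figure D1:**
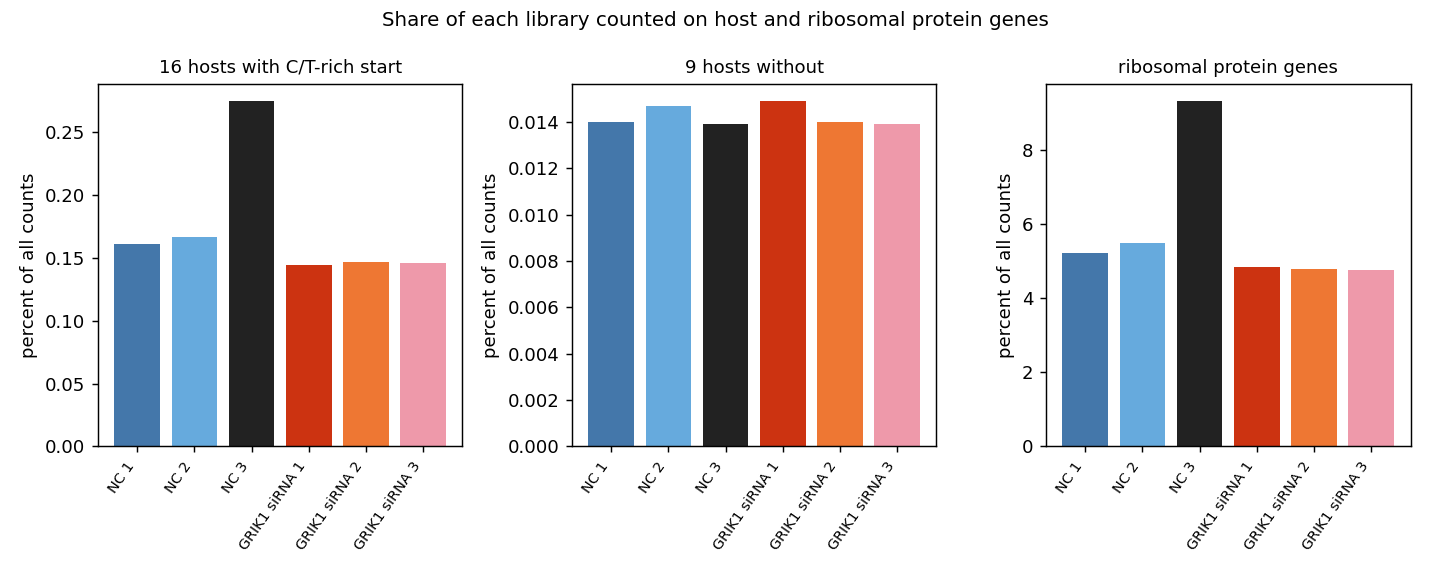
Bars give the percent of each library's counts that fell on 16 hosts with a C/T-rich annotated start, 9 tested hosts without one, and ribosomal protein genes, each panel on its own scale from 0. NC library 3 reached 0.275% and 9.32% in the outer panels, while the middle panel stayed between 0.0139% and 0.0149%.

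With all 6 libraries, 0 of the 25 hosts passed an adjusted p under 0.05 in the quasi-likelihood test of edgeR, where 490 of 15870 genes (3.09%) did, and the smallest adjusted p of a host was 0.066. At an unadjusted p under 0.05 there were 10 hosts (40.0%), 8 lower and 2 higher, against 25.1% of all tested genes. Of the 25, 20 had a log2 fold change below 0, and the median was -0.35, against -0.02 over all tested genes. DESeq2 called 3 hosts, SNHG8, SNHG4 and SNHG18, where it called 11.8% of the 14330 genes for which it gave an adjusted p. Limma-trend on log2(FPKM + 1) called 0 hosts, where it called 407 of the 15870 genes. In that fit 8 hosts had an unadjusted p under 0.05, and the share of all genes under it was not computed, so the 8 cannot be judged against a background. The 2 groups of libraries did not overlap in 11 hosts (44.0%), 9 of them lower and 2 higher, against 38.5% of all tested genes.

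Leaving out NC library 3, 11 of the 25 hosts (44.0%) passed an adjusted p under 0.05, against 35.2% of all tested genes. SNHG8, SNHG4, SNHG3, SNHG18, EPB41L4A-AS1, SNHG29, SNHG7, SNHG5 and SNHG32 fell, 9 hosts (36%) where 18.3% of all genes fell. SNHG15 and SNHG17 rose, 2 hosts (8.0%) where 16.9% of all genes rose. Over both directions the host share is near the background, and by direction it is above it for falls and below it for rises. The median of the 25 was -0.16 against 0.01 over all genes, and 0 hosts passed an absolute log2 fold change over 1 as well, against 3.09% of genes. The groups did not overlap in 15 hosts (60.0%), against 56.5% of all genes.

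**Figure D2:**
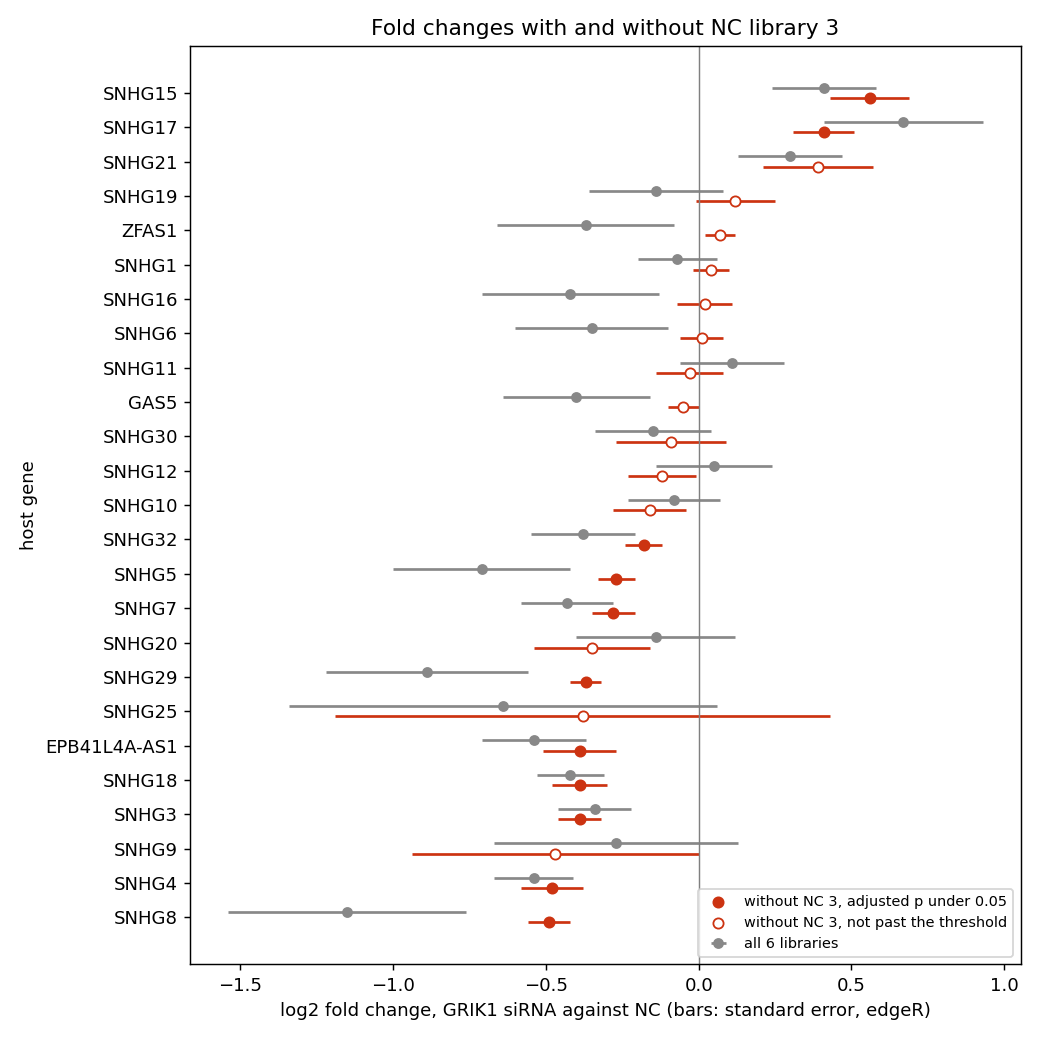
Each row is a tested host, with its log2 fold change (siRNA-labelled against NC) on the horizontal axis and the standard error from edgeR as bars, grey for all 6 libraries and red without NC library 3. The 11 filled red points passed an adjusted p under 0.05 and lie between -0.49 and 0.56.

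Among hosts with a TOP-like start, SNHG29, which carries box C/D snoRNAs, was the most heavily counted. It stood at 445, 452 and 1040 normalised CPM (counts scaled to library size, corrected by TMM) in NC libraries 1, 2 and 3, against 354, 350 and 339 in siRNA-labelled libraries. The groups were apart, and NC library 3 was 2.32 times the mean of the other NC libraries. Its log2 fold change was -0.89 ± 0.33 (SE, adjusted p = 0.155, edgeR), and without NC library 3 it was -0.37 ± 0.05 (SE, adjusted p = 7.8e-06).

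SNHG8 carries 1 H/ACA snoRNA (ENSG00000269893, chr4:118278703-118285316, plus strand). It had 58.9, 63.8 and 168 normalised CPM in NC and 42.3, 45.3 and 43.4 in the siRNA-labelled libraries. Again NC library 3 was highest, at 2.75 times its NC partners, and the siRNA-labelled libraries all lay below every NC library. The log2 fold change of -1.15 ± 0.39 (SE, adjusted p = 0.133) became -0.49 ± 0.07 (SE, adjusted p = 4.42e-05) when that library was left out, and DESeq2 with all 6 gave an adjusted p of 0.034.

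SNHG5, with 1 box C/D snoRNA listed in the deposited table, followed the same order. It had 230, 245 and 485 normalised CPM in NC and 179, 204 and 206 in the siRNA-labelled libraries. Its difference was -0.71 ± 0.29 (SE, adjusted p = 0.181), or -0.27 ± 0.06 (SE, adjusted p = 0.00123) without NC library 3. SNHG32 lies in the class III region of the major histocompatibility complex. It stood at 85.4, 87.6 and 127 normalised CPM against 80.5, 76.4 and 72.6, with a log2 fold change of -0.38 ± 0.17 (SE, adjusted p = 0.213), or -0.18 ± 0.06 (SE, adjusted p = 0.0335). In both genes the groups did not overlap, and the estimate shrank without the third control.

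SNHG4, SNHG18 and SNHG3 differed from these in that NC library 3 lay close to its partners, at 1.14, 1.05 and 0.903 times their mean. SNHG4 had 21.5, 23.2 and 25.3 normalised CPM in NC against 16.1, 15.3 and 16.6, and SNHG18 had 32.2, 32.3 and 34.0 against 22.9, 25.2 and 25.5. Neither gene's groups overlapped. The log2 fold change of SNHG4 was -0.54 ± 0.13 (SE, adjusted p = 0.066), and -0.48 ± 0.10 (SE, adjusted p = 0.00165) without NC library 3. For SNHG18 the values were -0.42 ± 0.11 (SE, adjusted p = 0.0901) and -0.39 ± 0.09 (SE, adjusted p = 0.00286).

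SNHG3 shares its 5′ region with RCC1, which encodes the nucleotide exchange factor of the GTPase Ran: the 2 genes lie on the same strand, overlap, and start 37 bases apart. SNHG3 had 98.4, 101 and 89.8 normalised CPM in NC against 79.2, 68.9 and 79.9, with groups apart. Its log2 fold change was -0.34 ± 0.12 (SE, adjusted p = 0.139), and -0.39 ± 0.07 (SE, adjusted p = 0.000206) without NC library 3. RCC1 fell by 1.16 on the log2 scale with all 6 libraries (SE 0.19, adjusted p = 0.0344) and by 0.92 without NC library 3 (SE 0.06, adjusted p = 5.06e-09). How reads in the shared exons were assigned is not given in the sources used here, and whether the 2 values share reads was not tested.

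GAS5, ZFAS1, SNHG6, SNHG16, SNHG1 and SNHG19 also have a TOP-like start and did not pass the test in either fit. GAS5 had 238, 251 and 443 normalised CPM in NC and 238, 236 and 232 in the siRNA-labelled libraries, and ZFAS1 had 161, 170 and 341 against 164, 171 and 184. In both, the siRNA-labelled libraries sat at the level of NC libraries 1 and 2, and NC library 3 stood 1.81 and 2.06 times above that level. The log2 fold change of GAS5 was -0.40 ± 0.24 (SE, adjusted p = 0.331), and -0.05 ± 0.05 (SE, adjusted p = 0.421) without NC library 3. For ZFAS1 it was -0.37 ± 0.29 (SE, adjusted p = 0.436), and 0.07 ± 0.05 (SE, adjusted p = 0.347).

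SNHG6 and SNHG16 were likewise 1.84 and 2.06 times higher in NC library 3 than in its partners. Their log2 fold changes of -0.35 and -0.42 became 0.01 and 0.02 without it. Within SNHG1 the deposited table lists 7 box C/D snoRNA genes, with the name SNORD22 given more than once. SNHG1 moved from -0.07 to 0.04, and SNHG19 from -0.14 to 0.12. SNHG11 and SNHG12 went the other way in NC library 3, at 0.730 and 0.670 times their NC partners, and their log2 fold changes were 0.11 and 0.05, then -0.03 and -0.12. SNHG25 had few counts, at 0.0741 to 0.643 normalised CPM, and its log2 fold change of -0.64 ± 0.70 (SE, adjusted p = 0.582) ran from -1.31 without siRNA-labelled library 1 to -0.18 without siRNA-labelled library 3, with -0.38 without NC library 3. The sign of 7 hosts turned when the third control was left out: SNHG16, SNHG11, ZFAS1, SNHG12, SNHG6, SNHG1 and SNHG19, none of them past the threshold in either fit.

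**Figure D3:**
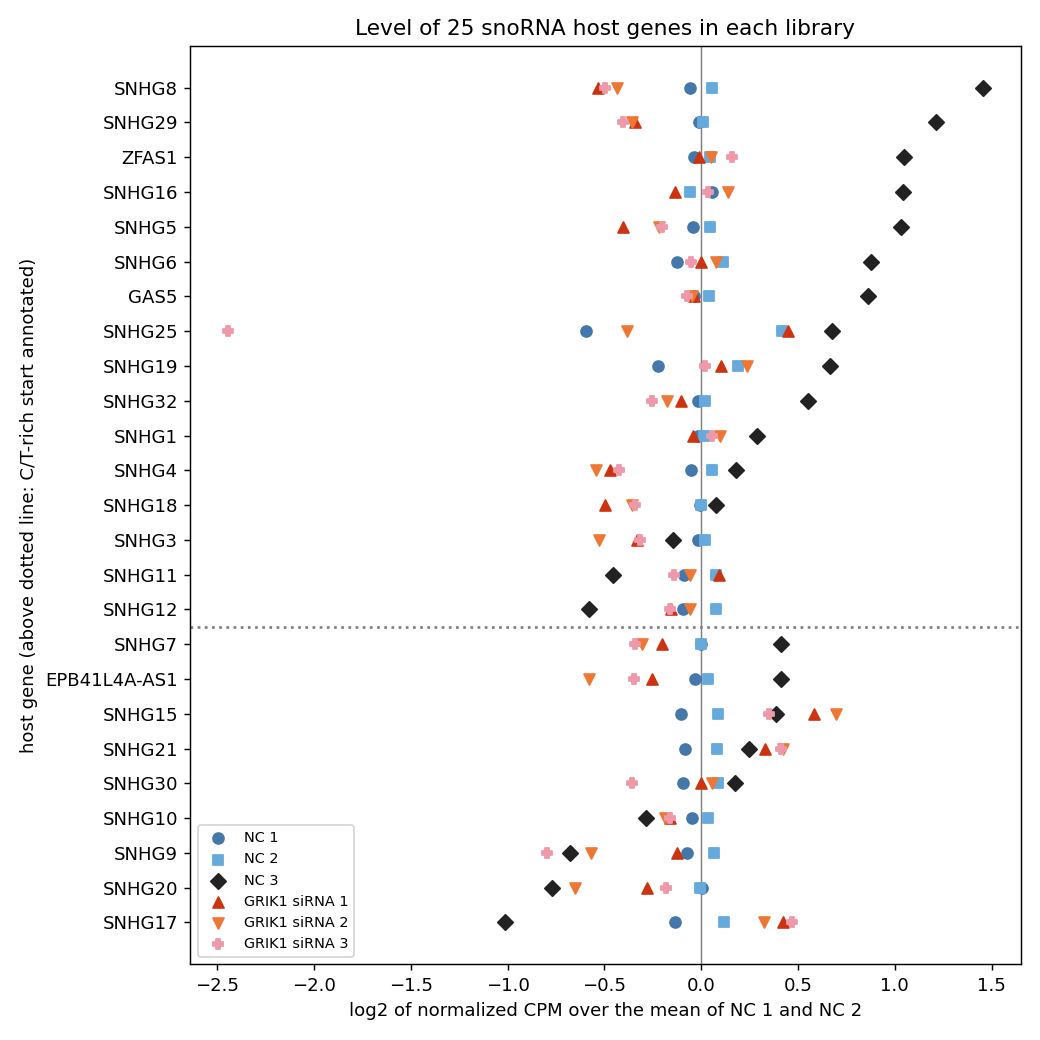
Points give the normalised CPM of each tested host in each library, as log2 over the mean of NC libraries 1 and 2, ordered by the value in NC library 3 within hosts with (above the dotted line) and without (below it) a C/T-rich annotated start. The black diamonds of NC library 3 run from -1.01 for SNHG17 to 1.46 for SNHG8, and it was the highest library in 13 of 16 hosts above the line and in 3 of 9 below it.

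The 9 tested hosts without a TOP-like start included both that rose in the fit without NC library 3. SNHG17, which carries H/ACA snoRNAs, had 20.4, 24.3 and 11.1 normalised CPM in NC and 30, 28.0 and 31.0 in the siRNA-labelled libraries. The groups were apart and NC library 3 was the lowest of the 6, at 0.496 times its partners. The log2 fold change was 0.67 ± 0.26 (SE, adjusted p = 0.171), and 0.41 ± 0.10 (SE, adjusted p = 0.00463) without NC library 3. SNHG15 had 11.8, 13.5 and 16.6 against 19.0, 20.6 and 16.2, so that NC library 3 overlapped the other group. Its log2 fold change was 0.41 ± 0.17 (SE, adjusted p = 0.192), and 0.56 ± 0.13 (SE, adjusted p = 0.00253) without that library.

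SNHG7 and EPB41L4A-AS1 fell in that fit. SNHG7 had 56.6, 56.7 and 75.5 normalised CPM in NC against 49.3, 45.8 and 44.7, and EPB41L4A-AS1 had 18.9, 19.8 and 25.7 against 16.2, 12.9 and 15.2. Neither gene's groups overlapped, and NC library 3 was 1.33 times its partners in each. The log2 fold changes were -0.43 ± 0.15 (SE, adjusted p = 0.136) for SNHG7 and -0.54 ± 0.17 (SE, adjusted p = 0.119) for EPB41L4A-AS1. Leaving it out, they were -0.28 ± 0.07 (SE, adjusted p = 0.00542) and -0.39 ± 0.12 (SE, adjusted p = 0.0156).

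The remaining 5 of the 9 did not pass in either fit. SNHG21 was at 4.72 to 5.95 normalised CPM in NC and 6.29 to 6.72 in the siRNA-labelled libraries, which did not overlap, with a log2 fold change of 0.30 ± 0.17 (SE, adjusted p = 0.314) and 0.39 (adjusted p = 0.101) without NC library 3. SNHG20 and SNHG10, each with 1 small Cajal body RNA, were at -0.14 and -0.08, and -0.35 and -0.16 without NC library 3. Leaving out any other single library put SNHG20 between -0.24 and -0.01. SNHG30 was at -0.15 and -0.09. SNHG9 had at most 1.08 normalised CPM and a log2 fold change of -0.27 ± 0.40 (SE, adjusted p = 0.692), which ran from -0.47 without NC library 3 or siRNA-labelled library 1 to -0.12 without NC library 2.

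Split by start, the 16 hosts with the TOP-like run had a median log2 fold change of -0.39 and the 9 without had -0.14. Leaving out NC library 3, the medians were -0.15 and -0.16. NC library 3 against its partners had a median log2 of 0.67 in the first set and 0.17 in the second, against -0.02 over all tested genes. Across the 25 tested hosts that library was the highest of the 6 in 16 (64.0%) and the lowest in 5 (20.0%), where over all tested genes it was highest in 35.5% and lowest in 36.3%.

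Of the 31 hosts, 6 lay below a mean of 0.5 FPKM and were not tested. SNHG14 had 424, 456 and 342 counts in NC and 517, 590 and 560 in the siRNA-labelled libraries, spread over 122609 exonic bases. Its groups were apart in these raw counts and narrowly in FPKM, at 0.31, 0.33 and 0.2 against 0.34, 0.38 and 0.35. Neither measure has the TMM correction used for the tested hosts, so this does not show that normalised levels were apart. The edgeR fit without a filter gave a log2 fold change of 0.24 (adjusted p = 0.546). SNHG26 had 4 to 15 counts, SNHG22 2 to 16, SNHG31 2 to 8 and SNHG28 0 to 3. SNHG27 had 0 counts in all 6 libraries, where a count of 0 allows up to 3 counts in a library, counting error alone considered.

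The snoRNAs inside the hosts were barely sampled. The table has 139 snoRNA and small Cajal body RNA genes within the span of a host on the same strand, 84 of them in SNHG14, with 110 of box C/D, 25 of box H/ACA and 4 small Cajal body RNAs. Of these 131 had no count in any library, and the other 8 had 242 counts in all. GAS5 and SNHG28 contain none in this table, which does not show that they carry no snoRNA. Some names, such as SNORA16A in SNHG12, stand on more than 1 entry, so these numbers are not an inventory of different snoRNAs. With so few counts, changes of the mature snoRNAs were not assessed. Whether depth, RNA size selection or the counting of reads that also lie in a host keeps these counts low was not tested. The 3 below were among those with counts, shown from GENCODE 29 on GRCh38 with the C and D boxes (TGATGA and CTGA) or the ACA box in capitals:
SNORA73B in SNHG3 (chr1:28508559-28508762, plus strand): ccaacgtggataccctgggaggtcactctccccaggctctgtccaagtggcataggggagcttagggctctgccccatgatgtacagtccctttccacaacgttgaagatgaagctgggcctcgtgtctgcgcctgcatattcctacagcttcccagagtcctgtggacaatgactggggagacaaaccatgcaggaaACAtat
SNORD123 in SNHG18 (chr5:9548836-9548905, plus strand): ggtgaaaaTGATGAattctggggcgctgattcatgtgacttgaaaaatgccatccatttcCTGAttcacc
SNORD12C in ZFAS1 (chr20:49278940-49279028, plus strand): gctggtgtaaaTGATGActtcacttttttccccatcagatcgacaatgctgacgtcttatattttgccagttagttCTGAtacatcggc

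SNORA73B had 22, 28 and 13 counts in NC and 17, 23 and 29 in the siRNA-labelled libraries, which overlap. SNORD123 had 8, 8 and 1 against 3, 5 and 2, and SNORD12C had 3, 0 and 1 against 1, 6 and 0. Reads of unspliced host RNA and of the snoRNA itself cannot be told apart in these counts.

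Ribosomal protein genes, which have the TOP start in common with many hosts, were also high in NC library 3, which was the highest of the 6 libraries in 80 of 80 tested genes. All 80 had a log2 fold change below 0 with all 6 libraries (median -0.58, from -1.36 for RPL39L to -0.22 for RPS19). EdgeR called 0, with 20 at an unadjusted p under 0.05 (25%, against 25.1% of all tested genes). DESeq2 called 2, where it called 11.8% of the genes for which it gave an adjusted p. Without NC library 3 the median was -0.19, with RPL39L at -0.79 and RPS19 at 0.03. In that fit 57 fell (71.2%, against 18.3% of all genes) and 0 rose. Among 19 translation factor and related TOP mRNAs the median was -0.51, and edgeR called 0, where it called 3.09% of all tested genes. At an unadjusted p under 0.05 there were 7 (36.8%, against 25.1% of all tested genes). DESeq2 called 3 of them, beside the same 11.8%. Leaving out NC library 3 gave a median of -0.24, and 12 fell (63.2%, against 18.3% of all genes) and 0 rose (against 16.9%). EEF1A1, the elongation factor that brings aminoacyl-tRNA to the ribosome, had the lowest value at -0.97 (adjusted p = 0.170), and -0.36 (adjusted p = 2.39e-06) without NC library 3. VIM had the highest at -0.02 (adjusted p = 0.937), and -0.08 (adjusted p = 0.153).

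The regulators of TOP RNAs did not move as one. Of 15 tested mTORC1 and LARP1 genes, edgeR called 2 with all 6 libraries, where it called 3.09% of all tested genes. MTOR, the kinase, rose by 1.02 on the log2 scale (SE 0.21, adjusted p = 0.0497). MLST8, a subunit of its complex, fell by 1.01 (SE 0.17, adjusted p = 0.0353). The values were 0.81 and -0.89 without NC library 3. The median was 0.16, and 0.15 in that fit, when 6 rose and 1 fell (together 46.7%, against 35.2% of all tested genes). By direction 40.0% rose, against 16.9% of all tested genes, and 6.67% fell, against 18.3%. LARP1, which binds the TOP start, was at 0.16 (adjusted p = 0.563) and 0.03 (adjusted p = 0.789). Of 22 nonsense-mediated decay factors, edgeR called 2, both higher, beside the same 3.09% of all tested genes. They were NBAS at 0.63 ± 0.12 (SE, adjusted p = 0.0426) and SMG1, the kinase of UPF1, at 0.66 ± 0.13 (SE, adjusted p = 0.0467). Without NC library 3 these were 0.73 and 0.56. The median was 0.14, and 0.11 in that fit, when 8 rose and 1 fell (together 40.9%, against 35.2% of all tested genes). By direction 36.4% rose and 4.55% fell, against the same 16.9% and 18.3%.

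The 15 mRNAs listed as targets of that decay had a median of 0.07 in both fits, from -0.35 for SRSF7 (adjusted p = 0.216) to 0.45 for GADD45A (adjusted p = 0.0816). Leaving out NC library 3 put SRSF7 at -0.17 and GADD45A at 0.39. EdgeR called 0 of the 15 with all 6 libraries and 4 had an unadjusted p under 0.05 (26.7%, against 25.1% of all tested genes). DESeq2 called 2. In the fit without NC library 3, 5 rose and 3 fell (together 53.3%, against 35.2%). In this list ATF3, ATF4, DDIT3, CDKN1A and GADD45A are also known stress-response genes.

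Proteins that assemble on snoRNAs had a median near 0. Of 21 tested genes of the snoRNP core and its assembly, edgeR called 0 with all 6 libraries, with 4 at an unadjusted p under 0.05 (19.0%, against 25.1% of all tested genes) and 0 by DESeq2. The values ran from -0.47 (adjusted p = 0.141) for NHP2, an H/ACA core protein, to 0.41 (adjusted p = 0.264) for WRAP53, which binds small Cajal body RNAs, and these were -0.28 and 0.24 without NC library 3. Their median of 0.04 turned to below 0 when NC library 1 or either of siRNA-labelled libraries 2 and 3 was left out, and without NC library 3 it was 0.05, with 5 that rose and 2 that fell (together 33.3%, against 35.2%).

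Protein-coding genes that also carry snoRNAs had a median of -0.08 over 41 tested, which turned positive on the log2 FPKM scale of limma-trend, where the median of all genes moved from -0.02 to 0.06. RCC1 was the 1 member called by edgeR with all 6 libraries, where 3.09% of all tested genes were called. The range ran from -1.17 for HSPA8 (adjusted p = 0.219) to 0.89 for UBAP2 (adjusted p = 0.133). HSPA8 was 4.09 times higher in NC library 3 than in its partners, and without that library it was at -0.14 (adjusted p = 0.0201) and UBAP2 at 0.59 (adjusted p = 5.08e-05). In that fit the median was -0.01, and 11 rose and 14 fell (together 61.0%, against 35.2% of all tested genes). Of 3 tested genes in the list of noncoding hosts under other names, edgeR called 0. DESeq2 called 1, where it called 11.8% of the genes for which it gave an adjusted p. In edgeR 2 had an unadjusted p under 0.05 (66.7%, against 25.1% of all tested genes). TMEM107 in that list is a protein-coding gene, so the list median is not one of noncoding hosts alone. TMEM107 was at -0.64 (adjusted p = 0.0563), DANCR at -0.38 (adjusted p = 0.251) and HCG18 at 0.54 (adjusted p = 0.111), and without NC library 3 they were at -0.56 (adjusted p = 0.000937), -0.15 (adjusted p = 0.191) and 0.62 (adjusted p = 0.00113). Some genes stand in more than 1 list, among them EEF1B2, RCC1, RPS2, SMG5, DKC1 and NOP56. The calls on RCC1, MTOR, MLST8, NBAS and SMG1 were lost when any 1 library other than NC library 3 was left out, since edgeR then called 0 of all genes, with 2238 to 4434 at an unadjusted p under 0.05.

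**Figure D4:**
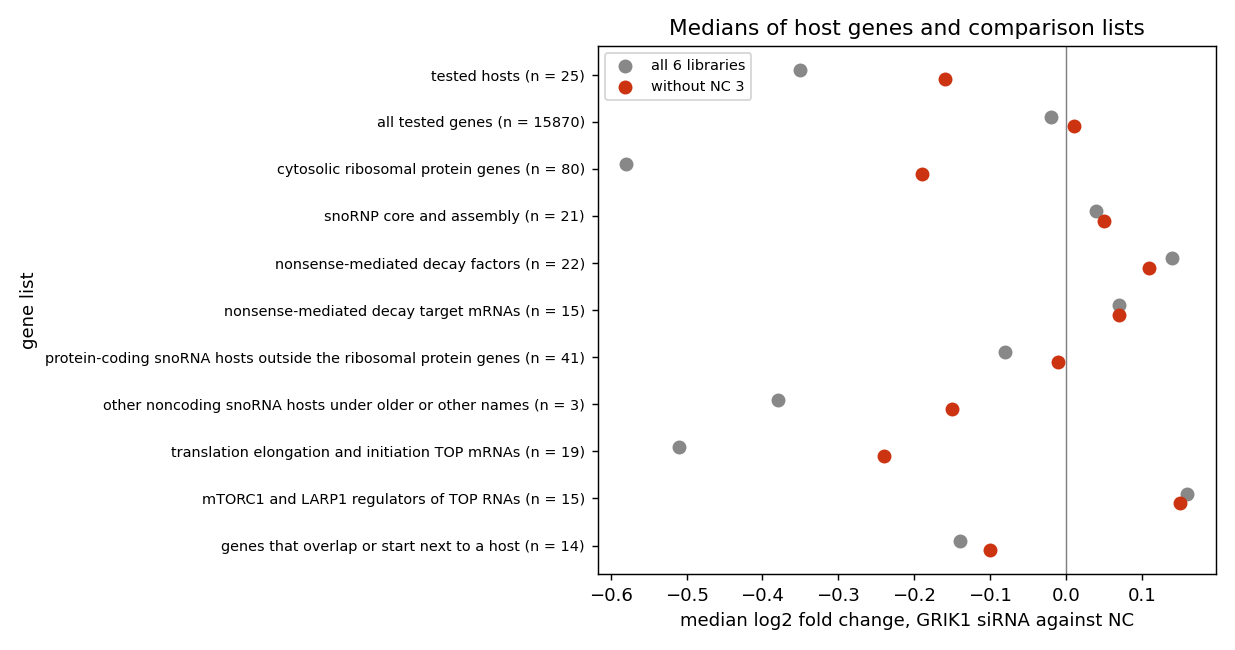
Points give the median log2 fold change (siRNA-labelled against NC) of the tested hosts and of each comparison list, grey with all 6 libraries and red without NC library 3, with the number of tested genes beside each name. The medians of hosts and ribosomal protein genes were -0.35 and -0.58 and shrank to -0.16 and -0.19, while those of the snoRNP proteins and protein-coding hosts lay near 0 and changed sign under some settings.

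Neighbours of the hosts were read because reads or promoters may be shared and the strand setting of the counting is not known. There were 14 tested genes that overlap a tested host or start next to it on the other strand, with a median of -0.14, and -0.10 without NC library 3. RCC1 was the 1 called by edgeR with all 6 libraries, where 3.09% of all tested genes were called. In that fit 6 had an unadjusted p under 0.05 (42.9%, against 25.1% of all tested genes). Without NC library 3, 5 fell and 3 rose (together 57.1%, against 35.2%), and the values below are from that fit. With all 6 libraries none of those named below passed, and their log2 fold changes ran from -0.85 for RPS2 to 0.66 for DIPK1B. ZNFX1, which overlaps ZFAS1 and starts 248 bases from it, rose by 0.30 on the log2 scale in that fit (adjusted p = 0.00145) where ZFAS1 was at 0.07. ZBTB37 beside GAS5 rose by 0.31 (adjusted p = 0.0137) where GAS5 was at -0.05.

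SLC3A2, a subunit of amino acid transporters that starts 51 bases from SNHG1, rose by 0.17 (adjusted p = 0.0418), with SNHG1 at 0.04. RPS2, 54 bases from SNHG9, had -0.43 (adjusted p = 1.18e-05), with SNHG9 at -0.47 (adjusted p = 0.487). TRAF7 beside SNHG19 had -0.33 (adjusted p = 0.00964), SEC14L1 overlapping SNHG20 had -0.40 (adjusted p = 0.000817) and SIL1 overlapping SNHG4 had -0.27 (adjusted p = 0.0419). TRNAU1AP, DIPK1B, GLRX5 and SEMA5A did not pass in either fit, at 0.14, 0.28, -0.19 and 0.05 without NC library 3. Host and neighbour thus had the same sign in some pairs and opposite signs in others.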

How the data were processed

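Per the labels, U87-MG libraries were made from total RNA with a VAHTS Universal RNA-seq kit, and the submitters' processing notes name cutadapt 1.9.1, HISAT2, HTSeq and GRCh38. The authors deposited 1 table of whole-number counts per gene, and FPKM values derived by the authors from exonic length and library total (the formula gave 100% of deposited values). Strand setting, counting mode and RNA selection are not given in the sources used here. Groups came from the labels, 0 value columns were unassigned and 0 rows name no gene.

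Genes with a mean FPKM of at least 0.5 (15870) were tested by quasi-likelihood in edgeR 4.0.16 under R 4.3.3 (TMM, no covariate, two-sided, Benjamini-Hochberg over all tested genes, adjusted p under 0.05), on all 6 libraries and again without NC library 3. DESeq2 1.42.0, limma 3.58.1, other filters and scaling, a replicate block and leaving out each library were alternatives. On simulated counts for 15870 genes with 200 changed by a log2 of 1, 94 were recovered with 6 false calls for all 6 libraries. Without NC library 3, 197 were recovered with 8 false calls. No simulated library was an outlier, only well-counted genes were changed, and hosts called without NC library 3 changed by less. These rates need not hold for the hosts or for the fit that includes NC library 3. Replicate numbers were not taken to pair the libraries. The same-numbered correlations of deviations from the group means were -0.07, 0.044 and -0.043. These cannot decide whether the libraries are paired, since NC library 3 lies far from its partners and weighs on every NC deviation. No library pair agreed within sampling noise (smallest mean chi-square per gene 2.22). Depth was 11099909 to 14006968 counts. Coordinates are those of the table, where 41634 of 58254 shared genes have the same start and end in GENCODE 29, and 7 of the 31 hosts do. Named are every host, list members past the threshold or else the largest rise and fall, neighbours of tested hosts (some are not reported here), and GRIK1. Further members were named after their values were seen: EEF1B2, DKC1, NOP56, SMG5 and RPS2 for list overlap, LARP1 and DANCR, and the stress-response genes. Members and lists were chosen with earlier results of these data known. Tables were made with pandas 2.3.3 and numpy 2.4.6 under Python 3.11.15.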

Additional observations from a re-analysis of the deposited data

How the results depend on the processing

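Over all tested genes, 490 calls became 1403 without a filter on low values, 1684 with DESeq2 and 280 with limma-trend on log2(FPKM + 0.1), and leaving out 1 library gave 0 to 5591, the highest without NC library 3. Host calls went from 0 to 2 without the filter (SNHG29 and SNHG8), 3 with DESeq2, and 0 to 11 with 1 library left out. The replicate block left 0 genes called, with 3324 at an unadjusted p under 0.05, and 0 hosts, with 8 at an unadjusted p under 0.05. The median of the hosts was -0.28 with that block and -0.19 in both limma-trend fits, with -0.43 to -0.16 on leaving out 1 library, so it stayed below 0 under every setting run.

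Under limma-trend on log2(FPKM + 1) and log2(FPKM + 0.1), in that order, the median of all genes moved to 0.062 and 0.089. List medians in these fits were 0.119 and 0.128 for snoRNP proteins, 0.231 and 0.243 for decay factors and 0.041 and 0.044 for protein-coding hosts. They were -0.214 and -0.256 for hosts under other names, 0.245 and 0.254 for mTORC1 and LARP1 genes and -0.036 and -0.052 for neighbours. SNHG10 turned to 0.009 and 0.017, and SNHG1 to 0.024 and 0.025.

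Leaving out 1 library gave medians of -0.04 to 0.065 for snoRNP proteins (-0.033 without NC library 1, -0.04 and -0.004 without siRNA-labelled libraries 2 and 3). The ranges were 0.106 to 0.231 for decay factors, -0.506 to -0.15 for hosts under other names, -0.577 to -0.235 for TOP mRNAs and -0.213 to -0.042 for neighbours. Single hosts ranged from -0.617 to 0.017 (SNHG16), -0.028 to 0.231 (SNHG11), -0.556 to 0.071 (ZFAS1), -0.118 to 0.191 (SNHG12), -0.536 to 0.010 (SNHG6), -0.121 to 0.038 (SNHG1) and -0.324 to 0.123 (SNHG19), and the end of opposite sign was without NC library 3. The cause of these shifts was not tested. With 3 libraries a group and fewer than 15 counts in a median library for SNHG9 and SNHG25, small changes of such hosts are beyond this depth.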
